A study of Mus musculus with 3 samples.

Results

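Of the 18116 cell barcodes deposited for the PC culture, 14925 passed filters of at least 500 genes, at least 1000 UMIs (unique molecules) and at most 20% UMIs from the mitochondrial genome. Among these, 864 barcodes gave at least 5% of their UMIs to Malat1, a noncoding RNA that stays in the nucleus. These Malat1-rich barcodes are the members described here, 5.79% of kept barcodes (exact binomial 95% interval 5.42% to 6.18%). They were set beside 1770 comparison barcodes of the same culture that had 1000 to 2000 UMIs and less than 2% Malat1. A working name called the members nucleus-like. The data went against part of that name, because mitochondrial RNA was higher in them, not lower, so they are called by their rule.

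PC cells come from mouse esophageal organoids carrying floxed Trp53 alleles, in which adenoviral Cre with EGFP deleted Trp53 and CRISPR/Cas9 then targeted Cdkn2a. Every barcode, members and comparison alike, shares this background, constitutive Cas9 and a transfected library of genetic barcodes. The organoid cells had been dissociated and grown in culture, and after 3 passages viable RFP-positive cells were sorted, about 1000000 in all, of which about 20000 were recovered. The droplet libraries used a 10x Genomics 3' kit, and 1 count matrix was analysed, so there is 1 sample, no replicate and no test between sets of barcodes.

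In an intact cell most messenger RNA lies in the cytosol, where ribosomes translate it, while newly made and unspliced transcripts and some noncoding RNAs stay in the nucleus. The messages of the mitochondrial genome lie inside mitochondria, a separate compartment outside the nucleus. Malat1 is retained in nuclear speckles, bodies rich in splicing factors, and Neat1 builds the paraspeckles beside them. Malat1 and the long isoform of Neat1 end without an ordinary poly(A) tail and are protected at the 3' end by a triple helix that U-rich stretches form with an A-rich stretch, whereas the short isoform of Neat1 has an ordinary poly(A) tail.

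Windows at or near the annotated 3' ends of these 2 RNAs are shown because Malat1 defined the members and Neat1 was the most abundant other noncoding RNA of the nuclear list. The DNA-letter sequences come from GENCODE M21 transcripts on GRCm38, read 5' to 3' on the minus strand. The Malat1 window is chr19:5795982-5796065 and the Neat1 window is chr19:5824708-5824797, both exonic. The annotated Malat1-201 transcript runs 292 bases past its window, whereas the Neat1 window reaches the end of Neat1-201. Capitals mark the 3 exact runs of at least 10 bases that the windows share: the U-rich runs TTTCTTTTCCTGA and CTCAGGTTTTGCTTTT, and the A-rich end AAAAAGCAAAA.
Malat1-201: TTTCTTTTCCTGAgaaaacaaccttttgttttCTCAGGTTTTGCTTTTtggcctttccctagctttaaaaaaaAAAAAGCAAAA
Neat1-201: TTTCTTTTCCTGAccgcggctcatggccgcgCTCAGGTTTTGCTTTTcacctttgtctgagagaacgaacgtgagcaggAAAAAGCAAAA
These runs were picked from the 2 windows themselves, so their presence there is no finding. Searched on the sense strand only, the first run occurred in 35 of 141767 annotated transcripts (0.0247%), the second in 2 (0.00141%) and the A-rich end in 618 (0.436%). Malat1-201 and Neat1-201 were the 2 transcripts that held all 3 runs. The longest run of A was 12 bases in the Malat1 window and 5 in the Neat1 window.

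Malat1 chose the members, so its values describe the rule. A member held between 53 and 554 Malat1 UMIs, with a median of 146, whereas a comparison barcode held between 0 and 39, with a median of 15. As a share of all UMIs, Malat1 ran from 5% to 29.7% in members (median 8.54%) and had a median of 0.976% in comparison barcodes. All levels below leave Malat1 out of the denominator: CPM is UMIs of a gene per 1000000 UMIs other than Malat1, and mitochondrial and ribosomal shares are percentages of the same total. The 864 members together held 1561576 UMIs and the comparison barcodes 2769613. The median member had 1343 UMIs (1000 to 5478) and the median comparison barcode 1581. Because each level is a share of what a barcode holds, a higher share of one RNA and less of the other RNAs cannot be told apart.

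The members were of 2 kinds, separated by the RNAs of ribosomal proteins, the protein parts of the ribosome, whose messages are among the most abundant in the cytosol. Over members the ribosomal protein share ran from 0.0956% to 25.4%, with few values in between: 11 members lay at 2% to 3% and 12 at 3% to 5%. Below 3% stood 567 members (65.6%, exact 95% interval 62.4% to 68.8%), called ribosomal-poor here, and the other 297 members lay above. The 3% line was chosen after these values were seen, and the low ribosomal values of the first kind are what it selected. Ribosomal-poor members had a median ribosomal share of 0.741% (0.0956% to 2.95%), a median depth of 1184 UMIs and a median Malat1 share of 11.2%. The other members had a median ribosomal share of 12.2% (3.24% to 25.4%), 2823 UMIs and 5.85% Malat1. Comparison barcodes had a median ribosomal share of 13.6% (0.581% to 28.8%), so the other members lay within the range of the comparison barcodes.

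**Figure D1:**
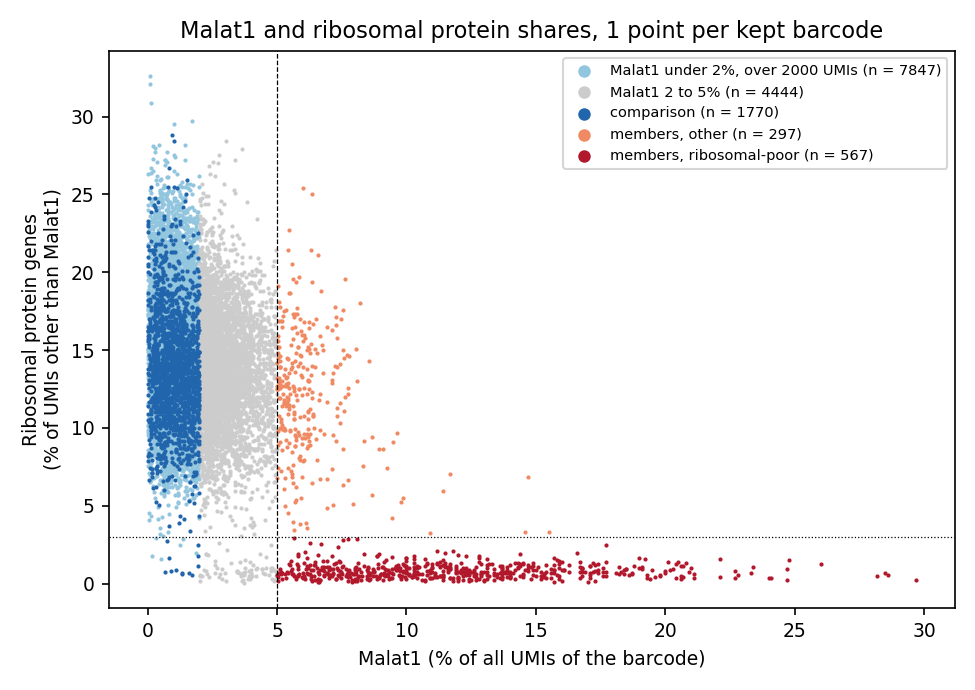
Each point is 1 kept barcode, with Malat1 as a percentage of all its UMIs on the x axis and ribosomal protein genes as a percentage of its UMIs other than Malat1 on the y axis. The dashed line is the 5% Malat1 minimum and the dotted line the 3% ribosomal line: 567 members form a flat band under the dotted line out to 29.7% Malat1, while the other 297 members continue the cloud of Malat1-low barcodes.

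The mix of the 2 kinds shifted with the Malat1 share. Just outside the rule, at 4% to 5% Malat1, 5.02% of 498 barcodes were ribosomal-poor and the median ribosomal share was 12.6%. Just inside, at 5% to 6%, the values were 16.7% of 204 barcodes and 11.6%, so most barcodes on both sides of the 5% minimum were not ribosomal-poor. The ribosomal-poor share was 47.0% of 198 members at 6% to 8% Malat1, 91.1% of 214 at 8% to 12% and 98.6% of 214 at 12% to 20%, and all 34 members over 20% were ribosomal-poor.

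Mitochondrial messages made up 7.48% of the members' UMIs and 2.96% of those of comparison barcodes, a ratio of 2.53 (2.50 to 2.55, counting error only). The excess lay mainly in the ribosomal-poor members, at 11.9%, against 3.85% in the other members. Per barcode, ribosomal-poor members ran from 0.276% to 23.4% with a median of 12%, the other members from 1.02% to 22.0% with a median of 3.52%, and comparison barcodes from 0.336% to 16.7% with a median of 2.55%. The ranges overlapped, and the filter at 20% of all UMIs cut the upper end of the first. In UMIs per barcode, ribosomal-poor members held a mean of 135 mitochondrial UMIs, comparison barcodes 45.9, and 7847 barcodes with less than 2% Malat1 and over 2000 UMIs 97.3. Few members were low in mitochondrial RNA: 27 of 864 lay under 2%, and 7 of those were ribosomal-poor. Of the 390 members at 10% or more, 385 (98.7%) were ribosomal-poor.

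**Figure D2:**
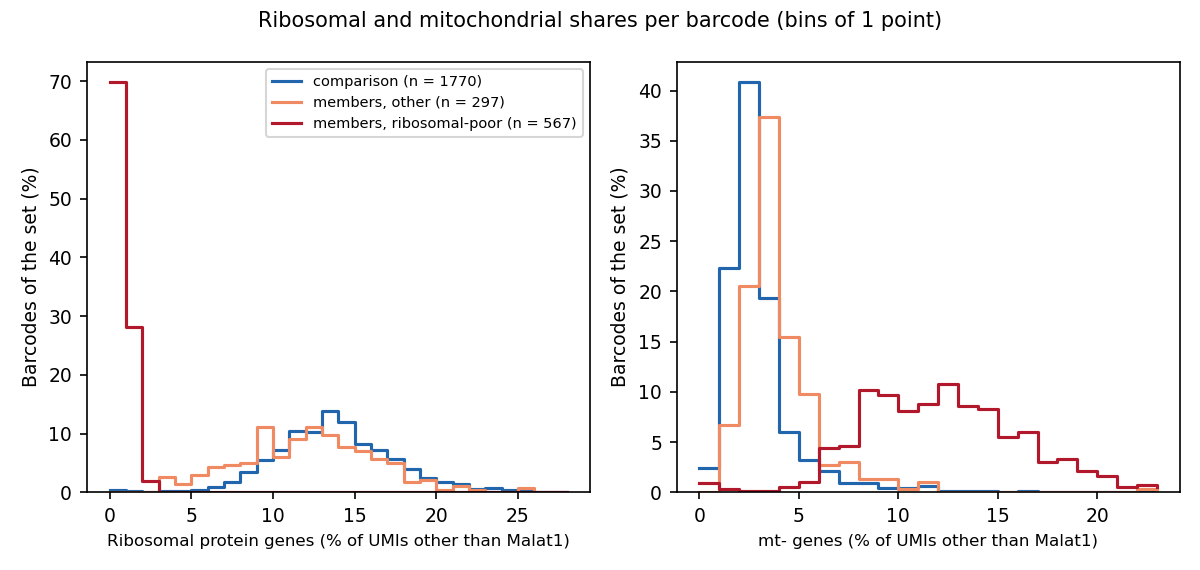
Histograms in bins of 1 percentage point show the ribosomal protein share (left) and the mitochondrial share (right) per barcode, as percentages of UMIs other than Malat1, with the y axis giving the percentage of barcodes of each set. Ribosomal-poor members (median 0.741% ribosomal and 12% mitochondrial) stand apart from comparison barcodes (13.6% and 2.55%), and the other members (12.2% and 3.52%) lie near them.

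All 13 protein-coding genes of the mitochondrial genome were higher in ribosomal-poor members, with a median log2 ratio of 1.99 and a range of 1.79 to 2.30. A gene was called higher or lower at a ratio of at least 2, with at least 20 UMIs in both sets together and exact 95% Poisson intervals that did not overlap. By this rule 30.1% of 10001 genes were higher in ribosomal-poor members and 22.9% lower, and the median log2 ratio of all of them was 0.25. mt-Atp6, a subunit of ATP synthase, stood at 26575 CPM in ribosomal-poor members, 8299 CPM in the other members and 6152 CPM in comparison barcodes. It had a median of 28 UMIs per ribosomal-poor member (0 to 90) and of 8 per comparison barcode (0 to 71). mt-Co1, the core subunit of cytochrome oxidase, was 3.98 times and mt-Nd4, a subunit of complex I, 4.71 times the comparison level. In the other members none of the 13 passed the rule, with a median log2 ratio of 0.39, against 3.32% of 9899 genes called higher and 2.39% called lower.

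Nuclear genes for the same respiratory chain went the opposite way. All 50 listed subunits were lower in ribosomal-poor members, with a median log2 ratio of -3.98. Cox4i1 and Cox5a encode nuclear subunits of cytochrome oxidase. Cox4i1 stood at 48.4 CPM against 847 CPM in comparison barcodes, 17.5-fold lower, and Cox5a was 22.2-fold lower. Atp5e, the small epsilon subunit of ATP synthase, was 48.9-fold lower, from 4 UMIs against 838. Summed over the list, the nuclear subunits stood at 1101 CPM in ribosomal-poor members, 12690.0 CPM in the other members and 15306 CPM in comparison barcodes. The 2 genomes' messages for 1 protein complex therefore stood in opposite directions in the ribosomal-poor members.

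Messages of abundant cytosolic proteins were lower in ribosomal-poor members. Of 81 ribosomal protein genes with enough UMIs, 80 were lower in ribosomal-poor members, as the 3% line required of their sum, and none passed the rule in the other members. All 20 translation factors and ribosome-associated genes were lower too, with a median log2 ratio of -3.46. Eef1a1, which brings aminoacyl-tRNA to the ribosome, stood at 362 CPM against 4263 CPM in comparison barcodes. Of 15 glycolysis genes, 9 were lower and none higher: Gapdh stood at 34.4 CPM against 1369.5 CPM, 39.9-fold lower. At 1000 UMIs per barcode, obtained by random thinning, a Gapdh UMI was found in 2.47% of ribosomal-poor members, 55.2% of the other members and 71.3% of comparison barcodes.

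Of 20 genes for actin, its partners and thymosins, 18 were lower and none higher. Tmsb4x encodes the actin-binding peptide thymosin beta-4 and had the most UMIs of any gene in comparison barcodes. It ran from 0 to 25 UMIs in ribosomal-poor members (median 1), from 0 to 172 in the other members (median 24) and from 0 to 154 in comparison barcodes (median 27). Its level was 936 CPM against 20015 CPM, 21.4-fold lower, although the ranges of single barcodes overlapped. Actb, cytoplasmic beta-actin, was 15.8-fold lower. Among 14 S100 and annexin genes 12 were lower; S100a6, a small calcium-binding protein, was 16.6-fold lower. Anxa1, a membrane-binding protein, was an exception chosen after its value was seen, at 3964 CPM in ribosomal-poor members and 2146 CPM in comparison barcodes, a ratio of 1.85 that missed the rule.

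Epithelial identity was read from keratins and adhesion genes. Of 20 listed, 15 were lower and none higher in ribosomal-poor members, with a median log2 ratio of -1.99. Krt14, a basal keratin, was 14.2-fold lower (98.4 against 1399.8 CPM) and Krt5, its partner, 10.1-fold lower. Epcam, an epithelial adhesion molecule, was 7.55-fold lower. Cdh1 (E-cadherin, named after its value was seen) did not pass the rule, at 258 CPM against 291 CPM. Of 10 epithelial transcription factors, 2 were higher, 3 lower and 5 neither. These counts lie near the shares over all genes, 30.1% higher and 22.9% lower. Trp63, the master regulator of stratified epithelium, spans 208 kb and was 2.46 times and Grhl2, a regulator of epithelial junctions spanning 131 kb, 2.92 times the comparison level. Sox2, a regulator of esophageal progenitors, was among those lower, with a log2 ratio of -1.83.

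Secreted and endoplasmic reticulum messages, which ribosomes hold at a membrane outside the nucleus, were also lower, 15 of 18 and none higher (median log2 ratio -2.20). Wfdc18, a secreted protease inhibitor family member, stood at 326 CPM against 6365 CPM. Hspa5, the lumenal chaperone BiP, was not lower, at 767 CPM against 483 CPM (named after its value was seen). Of 14 immediate early genes, which code for short-lived transcription factors, 8 were lower and none higher.

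Nuclear RNAs made up the other side. All 13 nuclear-retained noncoding RNAs with enough UMIs (Malat1 not counted) were higher in ribosomal-poor members, with a median log2 ratio of 2.41, beside 30.1% of all genes. Neat1 ran from 0 to 20 UMIs per ribosomal-poor member (median 2) and from 0 to 6 per comparison barcode (median 0). Its level was 2575 CPM against 188 CPM, a ratio of 13.7 (12.4 to 15.2), and 611 CPM in the other members, a ratio of 3.26. Ftx, a noncoding RNA of the X-inactivation centre, stood at 161 CPM against 12.4 CPM. Kcnq1ot1 and Airn are antisense RNAs that silence imprinted neighbours. Kcnq1ot1 stood 5.53 times and Airn 6.99 times as high as in comparison barcodes. Strand use in counting is not given in the sources used here, so reads of an antisense RNA and of the gene it overlaps cannot be told apart. In the other members 3 of the 13 passed the rule as higher, beside 3.32% of all genes.

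Noncoding RNAs did not all go the same way. Host genes of small nucleolar RNAs, spliced transcripts many of which reach the cytosol, had 3 of 14 higher and 1 lower, with a median log2 ratio of -0.08. With 14 genes, these counts are not told apart from the shares over all genes, 30.1% higher and 22.9% lower. Gas5, a spliced host gene, stood at 322 CPM against 491 CPM, and Snhg20, chosen after its value was seen like Gas5, was 4.64 times as high. Over all annotated long intergenic noncoding RNAs, 62 of 120 (51.7%) were higher and 11 (9.17%) lower, beside 30.1% and 22.9% of all genes.

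Splicing regulators, many of whose transcripts keep introns and stay in the nucleus, and genes for chromatin proteins were listed next. Of 31 splicing regulators, 17 were higher in ribosomal-poor members and none lower. Srrm2, a speckle scaffold protein, was 4.68 times as high, Clk1, a kinase of splicing factors, 3.29 times and Ogt, which adds O-GlcNAc to nuclear proteins, 5.59 times (all named after their values were seen). Hnrnpa2b1, an RNA-binding protein, was at 576 CPM against 751 CPM and passed in neither direction. Of 29 chromatin and nuclear scaffold genes 20 were higher and none lower, among them Atrx (3.30 times), a chromatin remodeller, and Nipbl (3.72 times), the cohesin loader. Over all genes 30.1% were higher and 22.9% lower, and over genes of at least 100 kb 78.2% were higher and 1.22% lower. The part that gene length has in these 2 lists was not tested. In the other members 0 of the splicing regulators and 1 of the chromatin genes were higher, beside 3.32% of all genes.

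**Figure D3:**
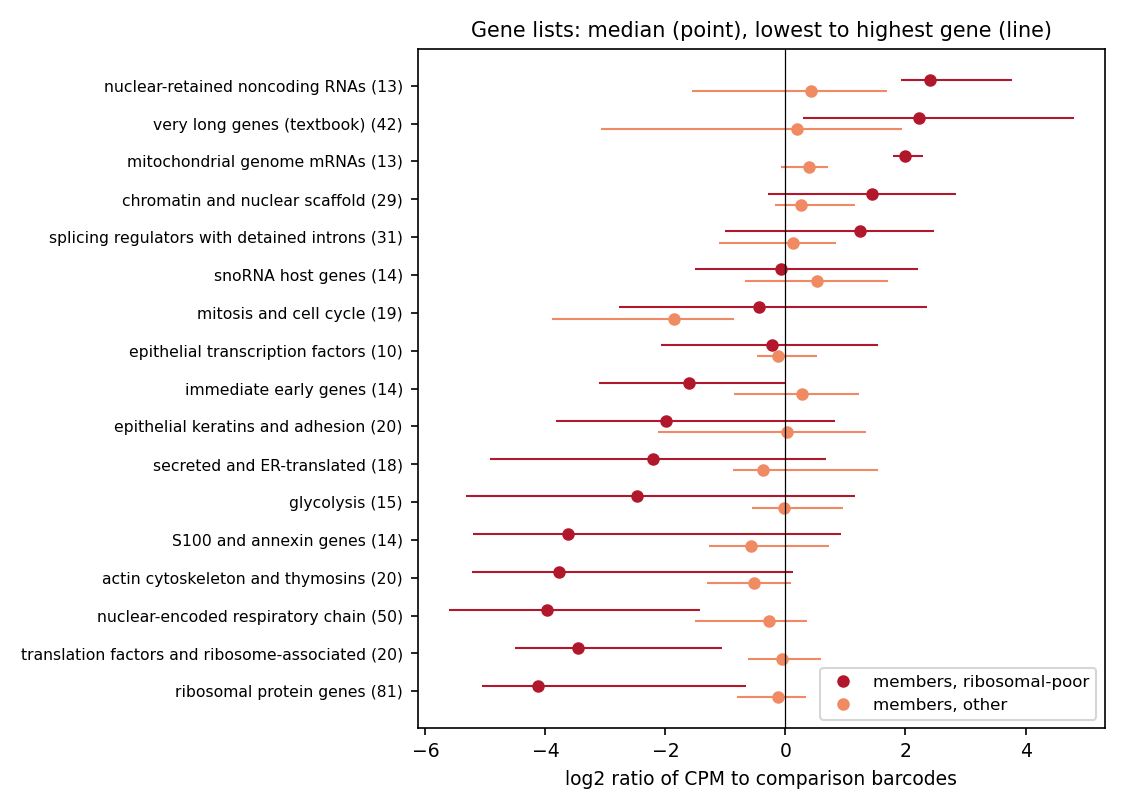
Points give the median over genes of the log2 ratio of CPM to comparison barcodes, lines run from the lowest to the highest gene, and the number in brackets is the genes with at least 20 UMIs in ribosomal-poor members and comparison together. For ribosomal-poor members the medians run from -4.12 for ribosomal protein genes to 2.41 for nuclear-retained noncoding RNAs, while for the other members they lie between -0.58 and 0.53 except for mitosis genes at -1.86.

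The ratios rose with the length of the gene. In ribosomal-poor members the median log2 ratio was -2.02 for genes spanning under 5 kb from start to end, -0.64 at 10 to 20 kb, 0.36 at 20 to 50 kb, 1.66 at 100 to 200 kb and 2.05 at 200 to 500 kb. Of the 438 genes of 200 to 500 kb, 86.1% were higher and 0.913% lower; of the 1008 genes under 5 kb, 4.56% were higher and 64.0% lower. Genes of at least 100 kb took 33.0% of UMIs in ribosomal-poor members and 9.61% in comparison barcodes, and genes under 10 kb took 8.07% and 42.7%. The pattern was also present without ribosomal protein genes, which are short: the other 2099 genes under 10 kb had a median log2 ratio of -1.51. Across 9986 genes the Spearman correlation of the log2 ratio with span was 0.66, a description over genes of 1 sample that share libraries and depth. Within 3 groups of equal size by comparison level, from low to high, it was 0.51, 0.71 and 0.79. In the other members the median log2 ratio was -0.04 below 5 kb and 0.25 at 200 to 500 kb, and the correlation with span was 0.17.

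**Figure D4:**
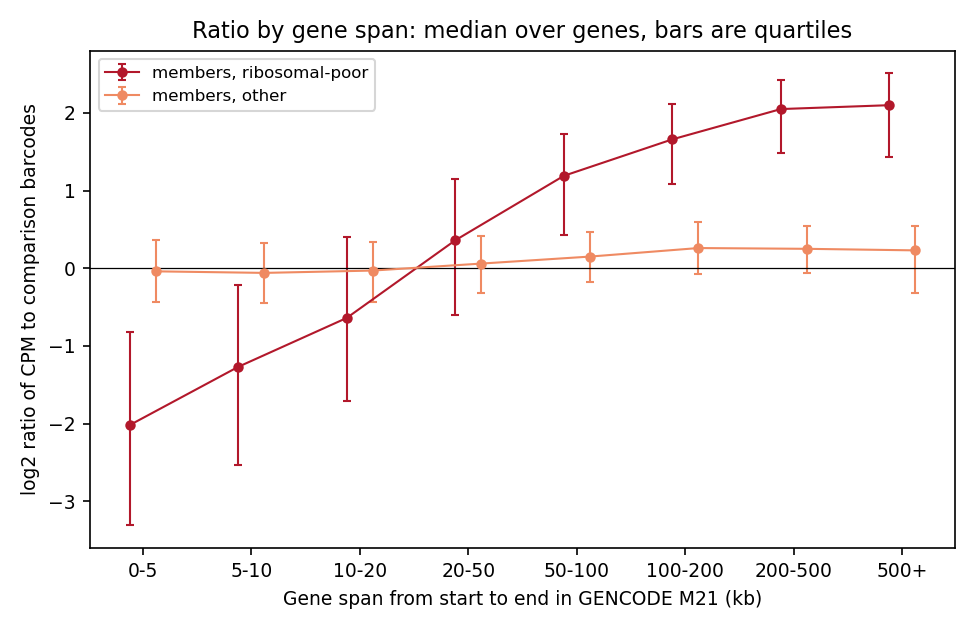
The x axis bins genes by span in the GENCODE M21 annotation, in kb, and the y axis is the log2 ratio of CPM to comparison barcodes; points are medians over genes and bars the quartiles. Medians of ribosomal-poor members climb from -2.02 to 2.10, whereas those of the other members stay between -0.06 and 0.26.

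The label markers Zfpm2, Aff2 and Immp2l belong to these long genes, and almost all of each span is intron. Zfpm2, a cofactor of GATA transcription factors (chr15:40655035-41104592, 97.9% intron), had 266 UMIs in ribosomal-poor members, 45 in the other members and 41 in comparison barcodes. Its level was 415 CPM, a ratio to the comparison level of 27.8 (19.9 to 39.6). Aff2, of the AF4 family of nuclear proteins (chrX:69360294-69868037), stood at 461 CPM against 33.9 CPM. Immp2l, a mitochondrial inner membrane peptidase (chr12:41024090-41955588, 99.8% intron), stood at 2277 CPM against 201 CPM, with 0 to 12 UMIs per ribosomal-poor member (median 2) and 0 to 10 per comparison barcode (median 0). These 3 genes were given with the rule from earlier results of these data, so their levels are a description. In the other members Zfpm2 was 3.83 times and Aff2 2.29 times the comparison level, and Immp2l, at 1.70 times, did not pass the rule.

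Long genes of unrelated function showed the same direction. Diaph2, an actin-nucleating formin of 716 kb, was 10.3 times, Ext1, a heparan sulfate synthase of 282 kb, 6.78 times and Pard3, a polarity protein of 548 kb, 6.59 times the comparison level in ribosomal-poor members (all named after their values were seen). Of 42 textbook long genes, 37 were higher and none lower. Eda, an ectodermal signalling ligand, stood at 356 CPM against 24.1 CPM, and Slit2, a guidance ligand, at 376 CPM against 31.4 CPM, both among the 12 largest ratios. As background, the version of Cell Ranger that wrote the counts includes reads in introns by default. The setting used is not given in the sources used here, so spliced and unspliced RNA cannot be told apart.

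Some genes went against their length. Of those with at least 100 kb, Bri3 was 10.6-fold lower and Hmgb1, an abundant chromatin protein, 8.21-fold lower. Of those under 10 kb, Clec2e, a C-type lectin, was 12.4 times and Taz, the tafazzin gene on the X chromosome, 4.85 times as high. The proliferin genes Prl2c2 and Prl2c3 were 5.30 and 5.14 times the comparison level. Their near-identical sequences make the split of reads between them uncertain. The 7847 deeper Malat1-low barcodes held Prl2c2 at 106 CPM and Prl2c3 at 209 CPM, against 179.6 and 291 CPM in ribosomal-poor members. The ratios to these levels were 1.69 and 1.39, and neither passed the rule. For Clec2e the ratio to the deeper barcodes was 8.79, which passed.

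The added sequences GFP and Scar stood near the comparison level. GFP stood at 16784 CPM in ribosomal-poor members, 12365 CPM in the other members and 14526 CPM in comparison barcodes. Per barcode it ran from 0 to 491 UMIs in ribosomal-poor members (median 15) and from 0 to 279 in comparison barcodes (median 17). Scar stood at 14461 CPM, 11196 CPM and 13614 CPM in the same order. The matrix does not say which library these UMIs came from, so RNA of the cells and reads of the barcode or scar library cannot be told apart. Of the engineered genes, Trp53 was higher in both kinds than in comparison barcodes. It stood at 68.7 CPM in ribosomal-poor members and 73.9 CPM in the other members, against 28.8 CPM, from 44, 58 and 79 UMIs. The deeper Malat1-low barcodes held Trp53 at 46.5 CPM. The ratios to that level were 1.48 in ribosomal-poor members and 1.59 in the other members, and neither passed the rule. Cdkn2a encodes p16 and p19Arf. It was at 179.6 CPM in ribosomal-poor members and 741 CPM in the other members, against 345 CPM in comparison barcodes. Against these it passed the rule only in the other members, at 2.15 times. The deeper Malat1-low barcodes stood at 650.5 CPM, and the other members were not 2-fold above that level. In ribosomal-poor members its ratio of 0.521 to comparison barcodes missed the rule, while its ratio of 0.276 to the deeper Malat1-low barcodes passed as lower. The difference between the 2 kinds was not tested. Notch1, a receptor gene that the labels do not name as altered in PC cells, passed in neither. Counts near the 3' end do not show whether a targeted gene was inactivated.

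**Figure D5:**
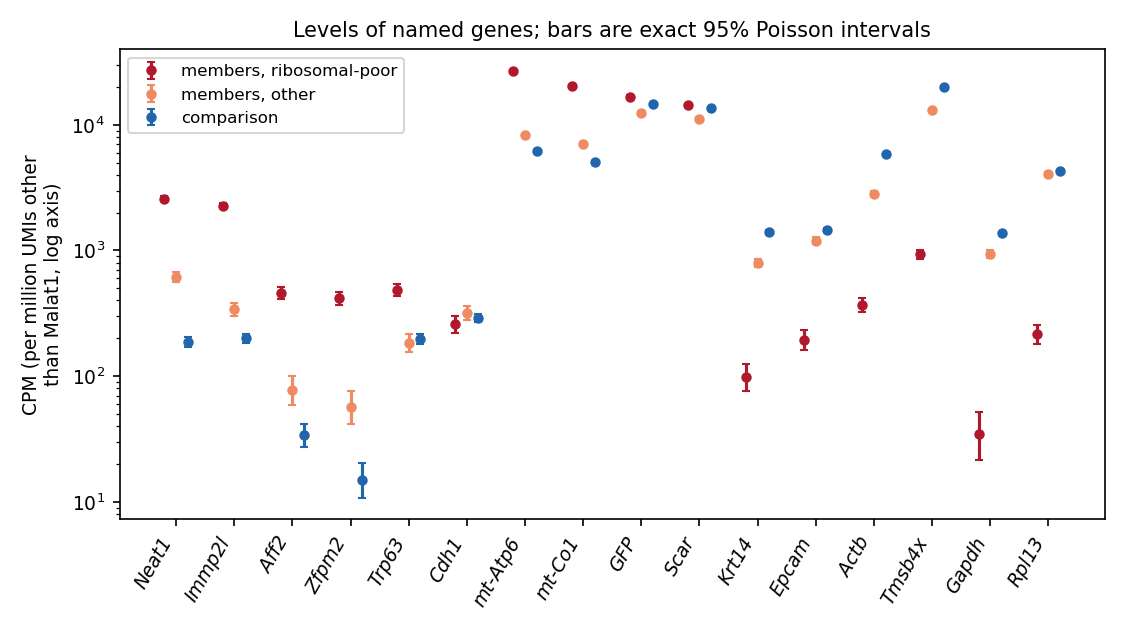
Levels of 16 genes are shown as CPM per UMI other than Malat1 on a log axis for ribosomal-poor members, the other members and comparison barcodes, with exact 95% Poisson intervals that cover counting error only. Neat1, Immp2l, Aff2 and Zfpm2 are highest in ribosomal-poor members, GFP and Scar lie close together in all 3 sets, and Krt14, Actb, Tmsb4x, Gapdh and Rpl13 are lowest in ribosomal-poor members.

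In the other members, genes of dividing cells were lower. Of 17 mitosis and cell cycle genes with enough UMIs, 12 were lower and none higher, with a median log2 ratio of -1.86 beside 0.07 over all genes. Ube2c, which tags mitotic cyclins for destruction, was 10.7-fold lower (7 against 262 UMIs). Cenpf, a kinetochore protein, had 0 UMIs in the other members against 122, at least 11.6-fold lower with a floor of 3 UMIs over the set. Stmn1, which destabilises microtubules, was 5.58-fold lower and the smooth-muscle actin Acta2 3.91-fold lower. Against the 7847 Malat1-low barcodes of over 2000 UMIs, which had a median of 3319 UMIs beside 2823 in the other members and 1581 in comparison barcodes, these 4 genes were lower as well: Ube2c stood at 8.92 CPM against 298 CPM and Acta2 at 189.8 CPM against 1268 CPM.

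Tspan1, Prl2c3 and Ch25h were among the genes higher in the other members, each with UMIs spread over many barcodes. Tspan1, a tetraspanin, stood at 93.0 CPM against 10.2 CPM in comparison barcodes (9.11 times), with at most 5 of its 73 UMIs in 1 barcode. Prl2c3, a proliferin, stood at 489 CPM against 56.5 CPM (8.65 times), with at most 22 of 384 UMIs in 1 barcode, and Ch25h, cholesterol 25-hydroxylase, at 273 CPM against 48.5 CPM (5.62 times), with at most 11 of 214. The deeper Malat1-low barcodes lay between, so the ratios to them were smaller: 2.89 for Tspan1 (32.2 CPM), 2.34 for Prl2c3 (209 CPM) and 3.41 for Ch25h (79.9 CPM), all past the rule. At 1000 UMIs per barcode a Ch25h UMI was found in 14.5% of the other members, 6.04% of the deeper barcodes and 4.07% of comparison barcodes. Other large ratios rested on 1 barcode. For Elmo1, an engulfment adaptor, 1 barcode held 149 of 160 UMIs, and the ratio of 10.5 became 0.728 without it. For Slpi, a secreted protease inhibitor, 1 barcode held 96 of 184 UMIs, the ratio of 3.83 became 1.84 and no longer passed the rule, and the ratio to the deeper barcodes was 1.43. For Aldh1a3, a retinoic acid enzyme, 1 barcode held 28 of 65 UMIs, and the ratio of 5.68 became 3.24, still past the rule. Of the 329 genes higher in the other members, 227 passed without the barcode that held most of the gene's UMIs. In ribosomal-poor members the same step left 2792 of 3008 higher genes. The step takes UMIs from the members only, which pushes ratios down, so it cannot check genes called lower.

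In ribosomal-poor members the cell cycle list had 4 genes higher and 5 lower of 19. These counts lie near the shares over all genes, 30.1% higher and 22.9% lower. Top2a, the topoisomerase of dividing cells, stood at 189 CPM against 69.3 CPM in comparison barcodes, while Ube2c was 6.80-fold lower. The deeper Malat1-low barcodes held Top2a at 183 CPM, near the level of ribosomal-poor members, and Ube2c at 298 CPM. Histone genes also differed among themselves: the variant H2afz was 12.7-fold lower and Hist1h2bc stood at 742 CPM against 519.7 CPM. Of 12 p53 target genes, 3 were higher and 4 lower, again near the shares over all genes. Cdkn1a, the inhibitor p21, was 10.3-fold lower, and Mdm2, which degrades p53, was higher at 197 CPM against 39.4 CPM (named after its value was seen).

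Few markers of other cell types had enough UMIs, and their part in the results was not tested. Of 11 immune markers 9 had no UMI in members, and the list summed to 3.12 CPM in ribosomal-poor members, 11.5 CPM in the other members and 9.12 CPM in comparison barcodes. Of 7 endothelial and 10 neural markers, 1 each had enough UMIs. These were Flt1, a receptor for vascular endothelial growth factor (164 kb, 4.10 times), and Map2, a microtubule protein (267 kb, 6.40 times), while no muscle or red blood cell marker had enough. The endothelial list summed to 114 CPM in ribosomal-poor members against 27.4 CPM, with 4 of its 7 genes at 0, and the neural list to 248 CPM against 43.8 CPM, with 7 of 10 at 0. Of 9 mesenchymal markers, 2 were higher and 3 lower in ribosomal-poor members, beside 30.1% and 22.9% of all genes. Vim, an intermediate filament, had 1 UMI in all 567 ribosomal-poor members and 194 in comparison barcodes. All 4 Y chromosome genes were higher in ribosomal-poor members, Uty, a histone demethylase gene of 149 kb, by 13.6 times (353 against 25.9 CPM). In the other members 3 of the 4 were higher too. The deeper Malat1-low barcodes held Uty at 44.1 CPM.

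Ribosomal-poor barcodes with less Malat1 also had high mitochondrial and long-gene shares. Of the 658 kept barcodes under 3% ribosomal UMIs, 567 (86.2%) were members and 91 were not. The 91 had a median of 9.65% mitochondrial UMIs and 1204 UMIs. Among comparison barcodes 12 of 1770 (0.678%) were ribosomal-poor. The 7 of these under 1% ribosomal had 11.8% mitochondrial UMIs and 35.4% of UMIs in genes of at least 100 kb, beside 34.5% in the 396 members under 1%. In the 1540 comparison barcodes with at least 10% ribosomal UMIs, long genes took 9.09%, and in the 200 members with at least 10% they took 10.7%. The long-gene and mitochondrial shares thus followed the ribosomal share on both sides of the Malat1 rule.

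In UMIs per barcode, ribosomal-poor members held a median of 356 UMIs of genes of at least 100 kb, comparison barcodes 142 and the deeper Malat1-low barcodes 288. For ribosomal protein genes the medians were 8, 206 and 479. Thinned to 1000 UMIs, ribosomal-poor members had a median of 634 genes, the other members 660 and comparison barcodes 673. A Zfpm2 UMI was found in 26.5% of ribosomal-poor members at that depth (31.0% without thinning) and in 1.58% of comparison barcodes (2.09%). No set of barcodes known to lack these genes was at hand to gauge free RNA, so such shares are not read as shares of expressing cells. All intervals cover counting error only.

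Over all 864 members, where the 2 kinds are mixed, 1913 of 10470 genes (18.3%) were higher than in comparison barcodes and 803 (7.67%) lower. Of these calls 70.4% were higher, or 59.5% when levels were taken per all UMIs with Malat1 included, which moved the median log2 ratio of all genes by -0.12. In the pooled sum Neat1 was 7.95 times, Zfpm2 14.6 times and Immp2l 6.03 times as high, and Tmsb4x stood at 0.382, Gapdh at 0.388 and Rpl13 at 0.546 times the comparison level.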

How the data were processed

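The deposited matrix held whole UMI counts per gene and cell barcode, written by Cell Ranger 8.0.1 per the file headers. The build was mm10 per the submitters' processing notes. That version counts reads in introns by default; the setting used is not given in the sources used here. Every barcode carried the same suffix and no barcode was shared between libraries (0), because 1 matrix was used. It names none of the 3 libraries, and the labels do not map its cells to one, so it was treated as 1 pooled sample. There were 0 further columns of sample values. Barcodes had at least 500 UMIs as deposited and 47720034 UMIs in all. No doublet caller was run, so doublets were not removed.

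Counts were summed over each set with numpy 2.4.6, with exact Poisson and binomial 95% intervals from scipy 1.17.1. Sums under 3 UMIs were set to 3 for ratios. Thinning drew 1000 UMIs per barcode. Spans and positions came from GENCODE M21 (GRCm38), which held 32235 of 32287 features; the matrix held 84 ribosomal protein genes of the Rpl and Rps names. Runs of A in introns were not analysed here. The rule for calling genes was tested on simulated sums that held counting error only, with no variation between barcodes. At the depth of ribosomal-poor members it called 96.0% of 50 genes set 3-fold higher and 72.0% of 50 set 3-fold lower. Of the unchanged genes it called 0.245%. The choice and split of barcodes were not simulated.

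The members and the 29 gene lists were chosen with earlier results of these data known. Named genes were the label markers, the 13 mitochondrial genes, the 12 largest ratios in each direction among genes with at least 100 UMIs (also within each kind of member), the 10 genes with most UMIs per set, the 4 with most UMIs per list, Trp53, Cdkn2a, Notch1, GFP and Scar; others are marked as chosen after their values were seen, as were Sox2, Bri3, Hmgb1 and Taz. The list of histone genes also holds replication-independent variants. Alternatives changed the Malat1, depth and mitochondrial limits, the denominator, the fold and the UMI minimum; taking each kind of member alone, leaving out each gene's highest barcode and comparing with the deeper Malat1-low barcodes were added after seeing the data.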

Additional observations from a re-analysis of the deposited data

Results flagged for a closer look

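Barcodes outside the filters, which enter no comparison above, carried the ribosomal-poor profile more often than those kept. Of 3191 such barcodes, 2799 (87.7%, exact 95% interval 86.5% to 88.8%) had under 3% ribosomal protein UMIs, against 658 of 14925 kept barcodes (4.41%) and 12 of 1770 comparison barcodes (0.678%). Of the 2799, 99.5% had under 1000 UMIs and 77.8% had at least 5% Malat1. Their medians were 687 UMIs, 8.79% Malat1, 14.1% mitochondrial and 0.886% ribosomal protein UMIs. This result stands out because the signal lies in barcodes that the filters leave out; its cause was not tested.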

How the results depend on the processing

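No paired analysis was possible because 1 matrix gave all values and no group had a replicate. The direction of the mitochondrial, ribosomal and length differences was the same under every alternative run. The number of members, 864, became 1362 with at least 4% Malat1, 462 with at least 8% and 545 with at most 10% mitochondrial UMIs, and divides into 567 ribosomal-poor and 297 other members. Under the first 3 settings, in the same order, the mitochondrial share of 7.48% became 5.67%, 11.8% and 5.08%, the ribosomal share of 7.24% became 10.0%, 1.46% and 9.31%, and the median log2 difference between genes of at least 100 kb and under 10 kb, 1.68, became 1.01, 3.07 and 1.25. With members of 1000 to 2000 UMIs the 3 values were 10.9%, 2.38% and 2.96, thinned to 1000 UMIs 9.23%, 4.86% and 2.35, for ribosomal-poor members 11.9%, 0.833% and 3.39, and for the other members 3.85%, 12.5% and 0.30. Without a mitochondrial limit they were 7.62%, 7.19% and 1.70, and per all UMIs the shares were 6.83% and 6.61%. The ribosomal share per UMI of nuclear genes was 8.06%. The length difference was 1.77 with comparison Malat1 below 1%, 1.48 with comparison of any depth and 1.93 for 200 kb against 5 kb. The 1913 higher genes became 1032 (4% Malat1), 1232 (10% mitochondrial), 650 (3-fold), 3008 (ribosomal-poor) and 329 (other members). The 803 lower genes became 342 (4%), 2054 (8%), 2011 (1000 to 2000 UMIs), 391 (10% mitochondrial), 1363 (thinned), 1504 (1.5-fold), 200 (3-fold), 2292 (ribosomal-poor) and 237 (other members). A turn of direction was counted only for genes called higher or lower over all members. Turns of other genes, such as Cdkn2a in ribosomal-poor members, were counted by size alone. Of 2108 values of named genes, 958 moved by less than their interval, 1131 by more and 19 of called genes turned direction. The last were, at 8% Malat1, Elmo1 0.892, Slpi 0.438, Sprr1b 0.853 and Sprr2d 0.235; with comparison of any depth, Slpi 0.875 and Sprr1b 0.978; with members of 1000 to 2000 UMIs, Elmo1 0.797, Hmox1 0.912, Slpi 0.274, Sprr1b 0.590 and Sprr2d 0.687; in ribosomal-poor members, Cenpf 1.05, Elmo1 0.970, Hmox1 0.749, Slpi 0.229, Sprr1b 0.366 and Sprr2d 0.639; and in the other members, Dleu2 0.723 and mt-Atp8 0.947. Beyond the choice of barcodes and genes that each setting makes, the cause was not tested. Without, for each gene, the member barcode with most of its UMIs (chosen after seeing the data), 1732 of the 1913 higher genes passed. That step pushes ratios down, so it cannot check the lower genes. Depth limits ratios from 1 to 3 UMIs in a set, whose intervals are several-fold wide.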
